A study of Mus musculus with 6 samples.

Results

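The genes described here encode the protein subunits of the cytosolic and the mitochondrial ribosome in primary mouse astrocytes. They were chosen by symbol, as Rpl, Rps, Mrpl or Mrps followed by a digit, together with Rplp0, Rplp1, Rplp2 and Rpsa and without the S6 kinases. The rule found 142 genes of the 19926 measured by a probe set with 1 gene symbol: 65 cytosolic and 77 mitochondrial. The cytosolic genes comprised 54 ribosomal proteins, 6 paralogs (Rpl10l, Rpl32l, Rpl39l, Rpl3l, Rps27l and Rps4l), 2 pseudogene symbols (Rpl14-ps1 and Rps19-ps3) and 3 other genes whose names match the rule (Rpl7l1, Rps19bp1 and Rps23rg1). A further 27 symbols of the families, among them Rpl3, Rpl11, Rpl13a and Rps27, occurred only on probe sets that also name other genes and were not analysed gene by gene.

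The study exposed astrocytes from C57BL/6J mice to TNF, an inflammatory cytokine, at 50 ng/mL for 24 h, and compared 3 such samples with 3 control samples of the same strain and time. RNA was measured on Affymetrix Mouse Gene 1.0 ST arrays, which read each gene with several short probes along the transcript, 1 array per sample. Values are log2 signals. The labels give replicate numbers 1 to 3 in each group but do not say that they are separate cultures, so the p-values below speak only to the spread among these 6 arrays.

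The cytosolic ribosome translates nuclear-encoded messages. Its subunit genes are among the most abundantly transcribed in any cell, and many of their messages begin with a run of pyrimidines (a terminal oligopyrimidine start, TOP), through which mTORC1 controls their translation. The mitochondrial ribosome is a separate machine of bacterial ancestry that makes the membrane subunits of the respiratory chain. Its proteins are encoded in the nucleus and imported, while its rRNAs come from the mitochondrial genome.

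Array medians lay between 7.14 and 7.18. The astrocyte markers were bright in every sample: Glul measured 11.82, 11.80 and 11.71 in TNF samples, against 12.53, 12.73 and 12.72 in control samples. Of 10 astrocyte markers 3 fell and 0 rose (6 fell and 2 rose with the replicate block described below), with list means of 10.64 to 10.91 in TNF samples and 11.02 to 11.32 in control samples. The markers did not all move one way: Aqp4, the water channel, and Slc1a2, a glutamate transporter, each differed by 0.60, with TNF samples above control samples (adjusted p = 0.0718 and 0.0617 without the block, 0.00690 and 0.0123 with it). Microglial markers gave list means of 6.58 to 7.47 in TNF samples and 6.46 to 7.42 in control samples, with 0 of 10 past the threshold (1 at an unadjusted p under 0.05, 2 higher with the block). In the oligodendrocyte, neuronal, endothelial and fibroblast marker lists 1 gene each fell, and in the ependymal list 0 of 5 (1 at an unadjusted p under 0.05, 2 lower with the block). Of all genes, 3.87% were called higher and 3.33% lower without the block, and 9.73% and 11.8% with it. The part of these markers in the results was not tested. In bulk samples, fewer cells of a type and less RNA per cell cannot be told apart.

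Transcripts of both ribosomes lay slightly higher in TNF samples than in control samples. The median log2 difference, TNF minus control, was 0.15 over the cytosolic genes (interquartile range 0.10 to 0.24) and 0.15 over the mitochondrial genes (0.06 to 0.31), against -0.003 over all genes (-0.14 to 0.12). The difference was positive for 62 of 65 cytosolic genes (95.4%) and 62 of 77 mitochondrial genes (80.5%), against 49.4% of all genes. Few genes passed the test on their own. In the limma fit over all genes, with a call at an adjusted p under 0.05, 5 mitochondrial genes rose, 0 cytosolic genes rose and no gene of either set fell.

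Read against the whole array, the share of mitochondrial genes called was close to that of other genes of like signal, and all calls were higher in TNF samples. The 5 mitochondrial calls made up 6.49% of that set, against 3.87% of all genes called higher. For lower calls the share of all genes was 3.33%, and 7.20% were called in either direction. Most mitochondrial genes lie above the median signal of the array, where the share of calls is larger: in a fit to those genes alone 7 of 74 mitochondrial genes (9.46%) were called higher, against 8.93% of all genes there. At an unadjusted p under 0.05, 7 cytosolic genes (10.8%) and 14 mitochondrial genes (18.2%) were higher, against 9.15% of all genes and 14.5% of genes at or above the median signal. No gene of either set was lower at that p, against 9.73% of all genes.

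The array means of both sets show the same pattern. The mean log2 signal over the cytosolic genes was 10.87, 10.71 and 10.64 in TNF replicates 1 to 3, against 10.71, 10.56 and 10.43 in control replicates 1 to 3. The mitochondrial mean was 9.49, 9.48 and 9.21 in TNF samples, against 9.37, 9.22 and 9.02 in control samples. In both sets the groups overlap, and the control arrays alone spanned 0.27 (cytosolic) and 0.35 (mitochondrial), more than the difference of the group means of 0.17 and 0.19.

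Each TNF sample nevertheless lay above the control sample of its own number. For the cytosolic mean the 3 differences within a number were 0.16, 0.15 and 0.20. For the mitochondrial mean they were 0.11, 0.25 and 0.19, and for the mean of all genes -0.02, 0.01 and 0.02. Replicate 3 had the lowest mean of both sets in both groups, so the ribosomal signal differed between replicate numbers as well as between groups, and the cause of the first was not tested.

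**Figure D1:**
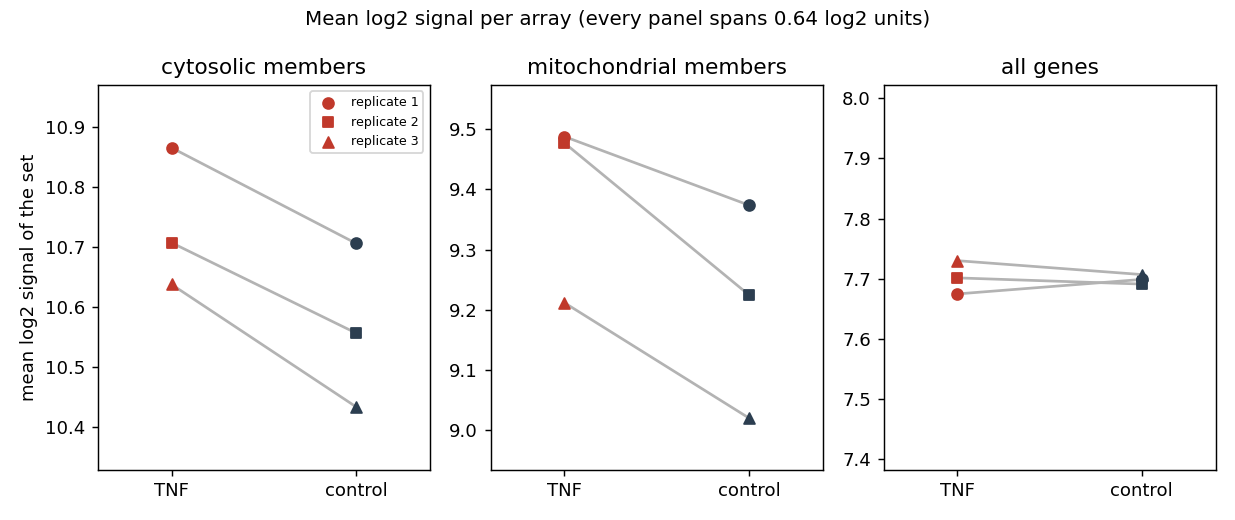
Mean log2 signal of the 65 cytosolic genes, the 77 mitochondrial genes and all genes tested (vertical axis), in TNF (left, red) and control (right, dark) samples, with grey lines joining samples of 1 replicate number. Each TNF sample lies above the control sample of its number, by 0.15 to 0.20 for cytosolic and 0.11 to 0.25 for mitochondrial genes, while the means of all genes differ by at most 0.02.

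Samples of the same number deviated together across all genes (correlations of 0.55, 0.65 and 0.75), and the fit with the replicate number as a block is therefore given beside the unblocked one. The block lowered the median SE of a member's difference to 0.079 in the cytosolic set and 0.082 in the mitochondrial set, against 0.135 and 0.144 without it. With the block, 10 cytosolic genes (15.4%) and 21 mitochondrial genes (27.3%) rose, against 9.73% of all genes, and 0 of each set fell, against 11.8% of all genes. Of the 10 cytosolic genes, 7 were among the 54 ribosomal proteins. The others were Rps19bp1, which is not a ribosomal protein, the pseudogene symbol Rps19-ps3 and the paralog Rps4l. Calls in either direction covered 21.5% of all genes in that fit. Among genes at or above the median signal, the blocked fit called 9 of 59 cytosolic genes higher (15.3%) and 20 of 74 mitochondrial genes (27%), against 15.1% of all genes there. The cytosolic share was thus at the level of genes at or above the median signal. That group is dimmer than the cytosolic set (median signal 9.24, against 11.02), and no share was computed for genes as bright.

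Counts by sign show the same contrast between size and regularity. TNF was higher in 3 of 3 numbers for 49 cytosolic genes (75.4%) and 46 mitochondrial genes (59.7%), against 25.7% of all genes and 35.1% of genes at or above the median signal. It was lower in 3 of 3 numbers for 0 cytosolic and 6 mitochondrial genes (7.79%), against 26.9% of all genes. The mitochondrial genes lower throughout were Mrpl1, Mrpl34, Mrpl40, Mrpl42, Mrpl50 and Mrps31, and none of them passed the test. Groups that did not overlap, with TNF above, were found for 11 cytosolic genes (16.9%) and 14 mitochondrial genes (18.2%), against 12.3% of all genes and 19.3% of genes at or above the median signal. No member had its TNF group wholly below the control group, against 11.7% of all genes.

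**Figure D2:**
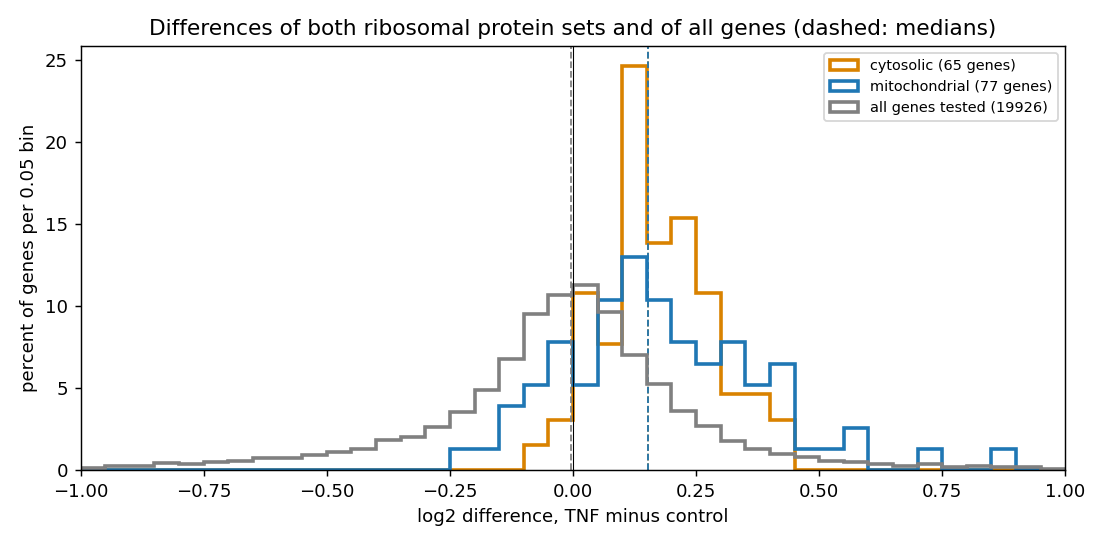
Percent of genes (vertical axis) by log2 difference, TNF minus control, in bins of 0.05 (horizontal axis), for cytosolic genes, mitochondrial genes and all genes tested, with dashed lines at the medians. Both ribosomal sets are centred on 0.15 and all genes on -0.003, and 637 genes with a difference beyond 1 in size, none of them ribosomal, are not drawn.

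The largest differences lay in the mitochondrial set. Mrpl45, a large-subunit protein that in human mitoribosomes sits at the exit of the peptide tunnel, measured 9.33, 9.15 and 9.13 in TNF samples, against 8.52, 8.42 and 7.99 in control samples. The groups were well apart, and control replicate 3 was the lowest sample. Mrpl45 averaged 9.20 ± 0.11 in TNF samples and 8.31 ± 0.28 in control samples (SD, n = 3 each), a log2 difference of 0.89 (SE 0.16) or 1.85-fold, with a limma adjusted p of 0.0148. Without TNF replicate 1 the adjusted p was 0.0544.

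Mrpl38, another large-subunit protein, measured 10.16, 10.19 and 10.42 in TNF samples, against 9.48, 9.45 and 9.66 in control samples. Replicate 3 was the highest sample in both groups, and the groups did not overlap. Its log2 difference was 0.73 (SE 0.12), a 1.66-fold higher signal with a limma adjusted p of 0.0119. Without control replicate 1 the adjusted p was 0.0569.

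Mrpl27, the counterpart of bacterial L27 near the peptidyl transferase centre, measured 10.20, 10.40 and 10.09 in TNF samples, against 9.80, 9.68 and 9.45 in control samples. All TNF samples lay above all control samples, and the difference was 0.59 (SE 0.14), 1.5-fold, with a limma adjusted p of 0.0428. Mrpl27 has a second probe set, numbered among genes of its own chromosomal position, which averaged 9.01 in TNF samples and 8.31 in control samples. That probe set gave a difference of 0.71 (SE 0.14, limma adjusted p = 0.0204). With any array other than TNF replicate 3 left out, the Mrpl27 call was lost, with adjusted p up to 0.152.

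In the small subunit, Mrps18b measured 10.44, 10.68 and 10.57 in TNF samples, against 10.09, 9.95 and 10.01 in control samples. The samples within each group were close together, and the groups were apart. Mrps18b rose by 0.55 (SE 0.11), 1.46-fold (limma adjusted p = 0.0256). The call was lost with any array other than TNF replicate 1 left out, with adjusted p up to 0.109.

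Mrps7, the counterpart of bacterial S7, which organises the head of the small subunit, measured 9.60, 9.75 and 9.56 in TNF samples, against 9.15, 9.26 and 9.17 in control samples. Every TNF sample exceeded every control sample, by a mean of 0.45 (SE 0.11), 1.37-fold, with a limma adjusted p of 0.0474. The Mrps7 call was lost with any 1 of the 6 arrays left out, with adjusted p up to 0.181. The number of mitochondrial calls without 1 array was 1 without control replicate 1, 3 without TNF replicate 3 and 2 without each of the others.

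**Figure D3:**
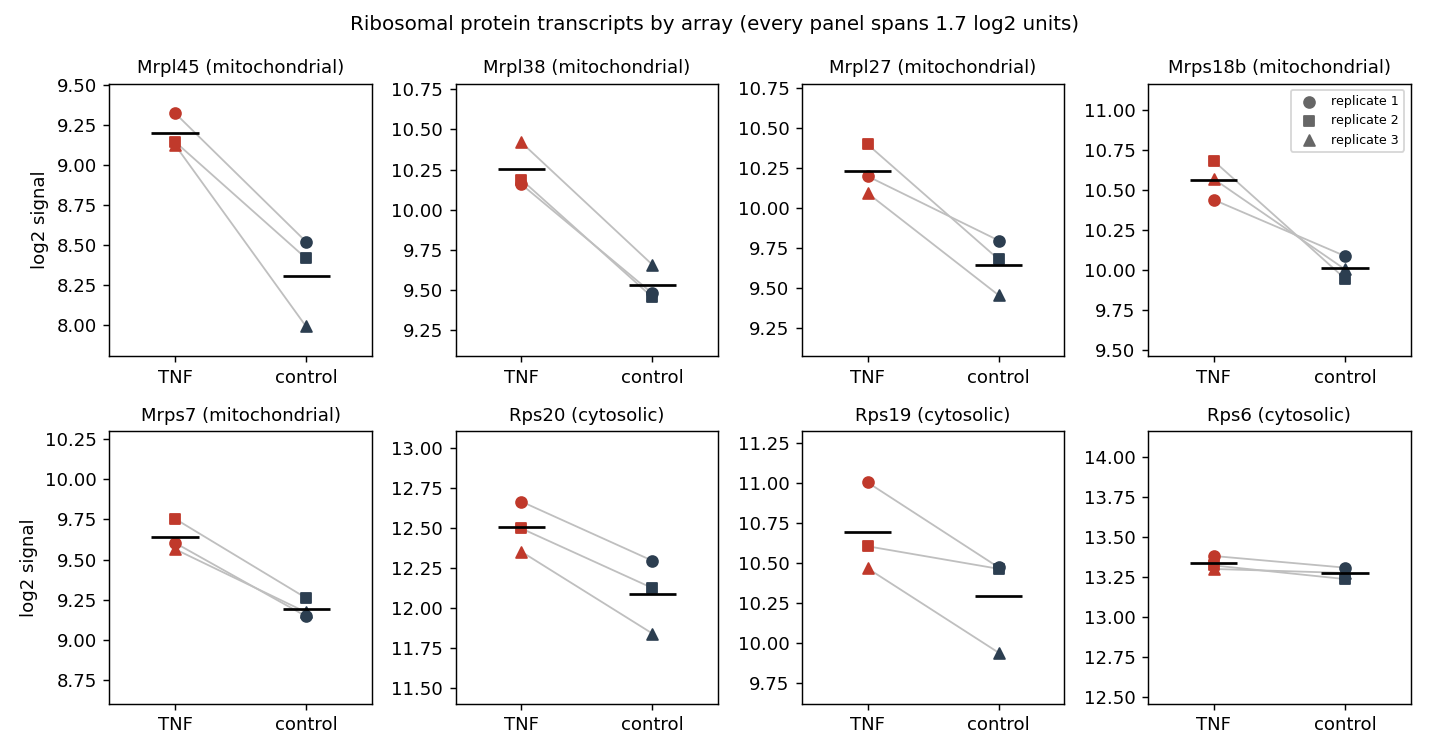
Log2 signal (vertical axis, 1.7 units in every panel) of the 5 called mitochondrial genes and of the cytosolic genes Rps20, Rps19 and Rps6, in TNF (left, red) and control (right, dark) samples, with the group mean as a black bar and grey lines joining samples of 1 replicate number. The groups are apart for the 5 mitochondrial genes and Rps20, meet for Rps19 and overlap for Rps6.

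The start regions of called genes and of TOP-start examples are printed below. No start entry was at hand for the called gene Mrpl38, so it is not shown. The windows below are from RefSeq on GRCm38.p6, 100 bases before to 30 bases after the annotated start, read on the gene's own strand and written 5′ to 3′. Capitals mark a TOP start (a C followed by at least 4 C or T bases, beginning within 5 bases of the annotated start), the ETS core CCGGAAG or the YY1 core ATGGCGG. The called genes Mrpl45 (chr11:97315616-97315745, plus strand), Mrps7 (chr11:115604040-115604169, plus strand), Mrpl27 (chr11:94653691-94653820, plus strand) and Mrps18b (chr17:35916411-35916540, minus strand) are shown because the test turned on them. Rps6 (chr4:86857338-86857467, minus strand) and Rplp2 (chr7:141447551-141447680, plus strand) are shown as cytosolic TOP starts.
Mrpl45: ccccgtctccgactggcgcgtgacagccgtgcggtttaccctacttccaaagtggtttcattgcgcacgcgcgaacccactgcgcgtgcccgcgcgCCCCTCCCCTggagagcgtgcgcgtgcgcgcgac
Mrps7: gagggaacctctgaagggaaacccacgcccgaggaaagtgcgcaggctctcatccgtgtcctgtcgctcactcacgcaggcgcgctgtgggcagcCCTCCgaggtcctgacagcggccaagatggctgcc
Mrpl27: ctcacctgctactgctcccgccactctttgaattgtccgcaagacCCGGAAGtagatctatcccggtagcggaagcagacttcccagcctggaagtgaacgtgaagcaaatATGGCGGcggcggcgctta
Mrps18b: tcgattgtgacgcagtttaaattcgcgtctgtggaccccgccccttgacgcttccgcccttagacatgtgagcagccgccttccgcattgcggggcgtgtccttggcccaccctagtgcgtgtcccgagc
Rps6: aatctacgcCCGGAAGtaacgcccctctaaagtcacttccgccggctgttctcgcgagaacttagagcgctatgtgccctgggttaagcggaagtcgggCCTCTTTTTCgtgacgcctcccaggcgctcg
Rplp2: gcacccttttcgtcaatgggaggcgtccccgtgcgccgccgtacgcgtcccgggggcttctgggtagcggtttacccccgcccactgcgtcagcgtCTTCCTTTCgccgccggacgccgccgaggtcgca

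A start entry was at hand for 51 of 65 cytosolic genes, 68 of 77 mitochondrial genes and 15553 of all genes tested. A gene was counted when any of its annotated starts matched, so the shares depend on how starts are annotated. On that rule a TOP start was found in 37.3% of the cytosolic genes, 25% of the mitochondrial genes and 22% of all genes. These are matches of letters, not shares of messages known to be TOP messages. In windows of 250 bases before to 50 bases after the start, on either strand, CCGGAAG (the core bound by ETS factors such as GABP) occurred in 37.3% of cytosolic and 36.8% of mitochondrial genes, against 13.6% of all genes. The YY1 core occurred in 15.7% and 17.6%, against 6.38%, and GCGCATG, part of the NRF1 site, in 15.7% and 11.8%, against 5.79%. TATAAA, the TATA box, occurred in 11.8% of cytosolic and 7.35% of mitochondrial genes, against 13.6% of all genes. ATGGCGG can overlap a start codon, and a match is a run of letters, not a binding site.

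Among mitochondrial genes, the 21 called with the block (16 with an entry) held a TOP start in 37.5%, the ETS core in 50%, the YY1 core in 37.5%, the NRF1 part site in 12.5% and the TATA box in 0%. The 56 not called (52 with an entry) held them in 21.2%, 32.7%, 11.5%, 11.5% and 9.62%. These shares describe 16 and 52 windows, and the difference was not tested.

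The mitochondrial genes that rose only with the block included Mrps12, Mrpl52, Mrps30 and Mrpl54. Mrps12, the counterpart of bacterial S12 at the decoding centre, measured 8.06, 8.11 and 7.96 in TNF samples, against 7.74, 7.61 and 7.59 in control samples. Its groups did not overlap, and its difference was 0.39 (SE 0.11), with a limma adjusted p of 0.0736 without and 0.0133 with the block. Mrpl52 had a difference of 0.41 (SE 0.12, adjusted p = 0.0956 without and 0.0104 with the block) and groups that did not overlap. Mrps30, a large-subunit protein despite its name, had a difference of 0.47 (SE 0.20, adjusted p = 0.261 without and 0.00747 with the block), and its groups overlapped.

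Mrpl54 gave a difference as large as that of Mrpl27 but with a wider spread. It measured 9.71, 10.002 and 9.37 in TNF samples, against 9.27, 9.57 and 8.47 in control samples, so the groups overlapped while each number kept its direction. Its difference of 0.59 (SE 0.29) had a limma adjusted p of 0.341 without and 0.00943 with the block.

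The 3 vertebrate homologs of bacterial S18 shared a direction. Mrps18b was called in both fits. Mrps18a, which sits in the large subunit despite its name, measured 10.40, 10.44 and 10.34 in TNF samples, against 10.20, 10.003 and 9.94 in control samples. Its groups did not overlap, and its difference was 0.35 (SE 0.11), with a limma adjusted p of 0.129 without and 0.0256 with the block. Mrps18c had a difference of 0.39 (SE 0.17), with adjusted p of 0.252 without and 0.0115 with the block. Mrpl2, Mrpl9, Mrpl14, Mrpl19, Mrpl21, Mrpl30, Mrps2, Mrps27, Mrps34 and Mrps35 also rose only with the block.

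At the low end of the mitochondrial set, Mrpl42 measured 7.99, 7.93 and 7.45 in TNF samples, against 8.15, 8.20 and 7.73 in control samples. The groups overlapped, although TNF was the lower sample of every number, and its difference of -0.23 (SE 0.19) had a limma adjusted p of 0.654 without and 0.0774 with the block. Mrps36, now counted as a component of the 2-oxoglutarate dehydrogenase complex, differed by -0.15 (SE 0.19), Mrpl50 by -0.13 (SE 0.14) and Mrps31 by -0.12 (SE 0.12). Mrpl12, the stalk protein that also binds the mitochondrial RNA polymerase, differed by 0.15 (SE 0.13, adjusted p = 0.672), and Mrps22 by 0.10 (SE 0.13). The members of highest signal, Mrps6, Mrps21 and Mrpl10, differed by -0.03 (SE 0.13), 0.06 (SE 0.20) and 0.14 (SE 0.10). Of those of lowest signal, Mrpl44 differed by 0.25 (SE 0.14) and Mrps26 by 0.18 (SE 0.17). The mitochondrial differences thus ran from -0.23 to 0.89, with an SD over genes of 0.21, against 0.11 over the cytosolic genes.

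The cytosolic genes lay in a narrower band, from -0.08 to 0.44. The highest was Rps19bp1, a binding partner of Rps19 and not itself a ribosomal protein. It measured 9.57, 9.76 and 9.59 in TNF samples, against 9.38, 9.24 and 8.98 in control samples. Its groups did not overlap, and its difference of 0.44 (SE 0.14) had a limma adjusted p of 0.111 without and 0.0203 with the block.

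Rps20, a protein of the small-subunit head, measured 12.66, 12.50 and 12.35 in TNF samples, against 12.30, 12.12 and 11.84 in control samples. All TNF samples lay above all control samples, and replicate 3 was lowest in both groups. Rps20 averaged 12.50 ± 0.16 in TNF samples and 12.09 ± 0.23 in control samples (SD, n = 3 each), a difference of 0.42 (SE 0.15) or 1.34-fold. Its limma adjusted p was 0.172 without and 0.00969 with the block.

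Rps19, the small-subunit protein mutated in human Diamond-Blackfan anaemia, measured 11.002, 10.60 and 10.47 in TNF samples, against 10.47, 10.46 and 9.94 in control samples. The groups met at 10.47, and the difference was 0.40 (SE 0.20), with an adjusted p of 0.348 without and 0.0302 with the block. Rpsa, also known as the laminin receptor, differed by 0.40 (SE 0.24, adjusted p = 0.486 without and 0.0444 with the block). The remaining cytosolic genes that rose with the block were Rplp2, Rpl13, Rpl24, Rps13, Rps4l and Rps19-ps3, by 0.28 to 0.37. For 5 of the 10 cytosolic genes called with the block, the probe set used was numbered away from the gene's own chromosomal position. They were Rpsa, Rpl13, Rpl24, Rps13 and Rps4l. Their probe sets at the own position gave differences of 0.30, 0.27, 0.43, 0.28 and 0.28. Whether those probe sets pass with the block was not tested. Rpl4 (0.26, SE 0.11, adjusted p = 0.248) and Rps3a1 (0.29, SE 0.14, adjusted p = 0.341) had groups that did not overlap but passed neither fit. Rps3a1 had no probe set at its own position. Rps3, which lines the mRNA entry channel, differed by 0.27 (SE 0.14) and Rps18 by 0.23 (SE 0.21), with overlapping groups.

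The 3 genes of the acidic stalk, where translation factors bind, were read at very unlike signals. Rplp2 measured 7.41, 7.01 and 7.07 in TNF samples, against 6.82, 6.88 and 6.67 in control samples, with no overlap and a difference of 0.37 (SE 0.14, adjusted p = 0.191 without and 0.0426 with the block). Rplp0, the stalk base, differed by 0.11 (SE 0.12, adjusted p = 0.793), and Rplp1 by 0.04 (SE 0.11, adjusted p = 0.947). The mean signal was 6.98 for Rplp2, which has 1 probe set, against 13.09 for Rplp0 and 13.02 for Rplp1. The median over all genes was 7.63, so the Rplp2 reading is a dim one. How well that probe set reads its transcript, and whether the 3 differences differ from each other, was not tested.

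Rps6, the substrate of the S6 kinases, measured 13.38, 13.32 and 13.30 in TNF samples, against 13.31, 13.24 and 13.28 in control samples. The groups overlapped and the difference was 0.06 (SE 0.10, adjusted p = 0.891). Rpl28 differed by 0.15 (SE 0.11), Rpl10 by 0.08 (SE 0.11), Rpl22 by 0.04 (SE 0.14) and Rps15 by 0.01 (SE 0.10). Rpl21 differed by -0.001 (SE 0.11) and Rps4x by -0.002 (SE 0.13). Small differences were common among bright genes: the 15 cytosolic genes with a mean signal of 12 or more had a median difference of 0.08, against 0.18 for the 32 genes between 10 and 12, 0.22 for the 9 between 8 and 10 and 0.14 for the 9 below 8, so the medians did not follow signal throughout. In mitochondrial genes the median was 0.10 for the 18 between 10 and 12, 0.18 for the 51 between 8 and 10 and 0.25 for the 7 below 8. In all genes the medians of the bands, from 12 or more down to below 8, were -0.04, -0.02, 0.01 and -0.004. The part of signal level in these differences was not tested.

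Grouped by symbol alone, the 26 small-subunit symbols of the cytosolic set had a median difference of 0.23 and the 39 large-subunit symbols 0.14. The blocked fit called 7 and 3 of them higher, and the 7 include Rps19bp1, Rps19-ps3 and Rps4l. In the mitochondrial set the 29 small-subunit symbols had a median of 0.18 and the 48 large-subunit symbols 0.15, with 10 and 11 called higher. The blocked fit called 9.73% of all genes higher, and 15.1% of genes at or above the median signal. A symbol does not always give the subunit: Mrps18a and Mrps30, both among the 10, sit in the large subunit. Mrps36, Rps19bp1, Rps23rg1 and Rpl7l1 were also grouped by name only. The differences between these groups of symbols were not tested.

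Of the tissue-restricted paralogs, the muscle paralog Rpl3l measured 5.29, 5.50 and 5.96 in TNF samples, against 5.30, 5.10 and 5.91 in control samples, and differed by 0.14 (SE 0.25). Rpl39l differed by 0.14 (SE 0.21), the pseudogene symbol Rpl14-ps1 by 0.09 (SE 0.12) and Rpl10l, a testis paralog, by -0.08 (SE 0.26). Mean signals were 5.51 for Rpl3l, 4.68 for Rpl39l, 6.43 for Rpl14-ps1 and 6.46 for Rpl10l. All lie below the median of 7.63 over all genes, so these readings are dim ones. Rpl3l, Rpl39l and Rpl10l overlapped between groups, and their replicate 3 values were the highest of each group. Rps27l, a p53-responsive paralog of Rps27, differed by 0.26 (SE 0.15, adjusted p = 0.447 without and 0.0588 with the block).

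Cytosolic ribosomal protein genes have many processed copies in the genome, and on this array many of them have several probe sets. The order of probe set numbers placed 34 of the 65 cytosolic probe sets used, and 6 of the 77 mitochondrial ones, away from the gene's own chromosomal position. For a check, the same ordering placed 99.0% of 3770 genes with a single probe set within 5 Mb of their position. With probe sets at the gene's own position, the median difference was 0.17 over 59 cytosolic genes and 0.15 over 76 mitochondrial genes. The fit without the block gave 0 cytosolic and 5 mitochondrial calls on them.

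Most genes had differences of like sign on all their probe sets. Of 39 cytosolic genes with more than 1 probe set, 37 had a positive difference on all of them, and the range between probe sets of a gene had a median of 0.04 and reached 0.17 for Rpsa. The exceptions were Rpl21 (5 of 9 positive) and Rps4x (4 of 5 positive), whose differences lay near 0. Of 8 mitochondrial genes with 2 probe sets, 5 were positive on both, Mrps36 was negative on both, and Mrpl41 and Mrps33 had 1 of each sign. Rps12 had 14 probe sets. Probe sets of a gene can share sequence, as for Rpl41, whose 3 probe sets held identical values, so they are not independent readings. The 240 probe sets that name a member beside other genes had a median difference of 0.15, from -0.10 to 0.41, with 0 called by limma over all probe sets and 3 at an unadjusted p under 0.05.

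**Figure D4:**
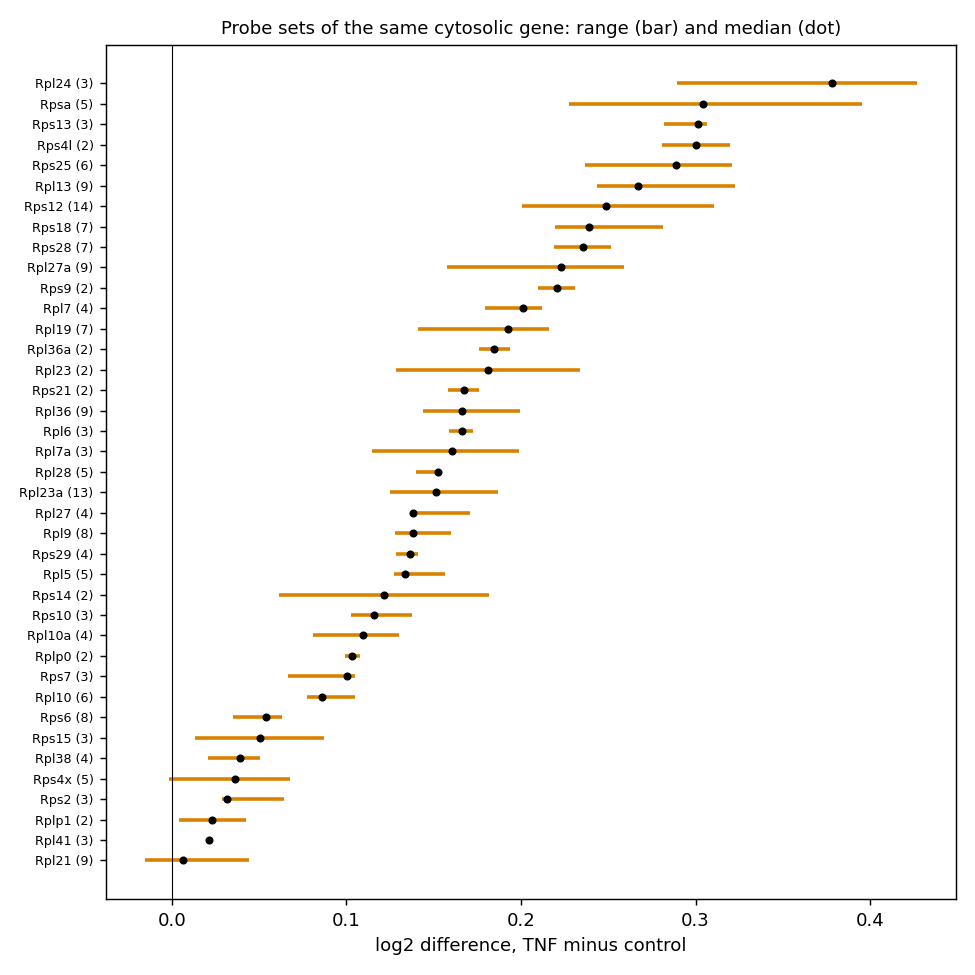
Log2 difference, TNF minus control (horizontal axis), over the probe sets of each cytosolic gene that has more than 1 (vertical axis, number of probe sets in parentheses), with the range as a bar and the median as a dot. The bars are short against the spread between genes, and 37 of 39 lie wholly above 0.

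Genes that build and serve the ribosomes were read from lists written for this comparison. Of 51 genes of cytosolic ribosome assembly and rRNA synthesis, 4 rose (7.84%, against 3.87% of all genes) and 0 fell. Their median difference was 0.30, with 45 positive values. In the same fit 619 of 9963 genes at or above the median signal were called higher. In a separate fit to those genes alone 8.93% were, but the share of the list in that fit is not given. No conclusion is drawn from the unblocked share, which rests on 4 genes. With the block 27 rose (52.9%, against 9.73% of all genes and 15.1% of genes at or above the median signal) and 0 fell. The called genes were Nop2, an rRNA methyltransferase, by 0.52 (SE 0.10, limma adjusted p = 0.0197), and 3 subunits of RNA polymerase I: Polr1e by 0.51 (adjusted p = 0.0245), Polr1a by 0.56 (adjusted p = 0.0279) and Polr1b by 0.43 (adjusted p = 0.0469). Polr1a measured 9.37, 9.56 and 9.43 in TNF samples, against 9.03, 8.85 and 8.78 in control samples, with no overlap. The Polr1a and Polr1b calls were lost with any 1 array left out, the Nop2 call without TNF replicate 2 or any control array, and the Polr1e call with any array other than TNF replicate 3, with adjusted p up to 0.161.

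Of 34 cytosolic translation factors, 2 rose (5.88%, against 3.87% of all genes) and 0 fell, with a median of 0.12. With the block 5 rose (14.7%) and 1 fell, a share of higher calls close to the 15.1% of genes at or above the median signal. Eif6, which keeps the large subunit from joining the small one too early, measured 11.32, 11.47 and 11.35 in TNF samples, against 10.61, 10.50 and 10.37 in control samples. Its groups were far apart, with a difference of 0.89 (SE 0.11), 1.85-fold (limma adjusted p = 0.00349). Pabpc1, the cytoplasmic poly(A)-binding protein, rose by 0.47 (adjusted p = 0.0351), a call lost with any 1 array left out, with adjusted p up to 0.136.

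The mitochondrial counterparts held no limma calls without the block. Of 13 mitochondrial translation factors 0 passed the test (1 at an unadjusted p under 0.05), with a median of 0.13 and 12 positive values. With the block 1 rose (7.69%, against 9.73% of all genes and 15.1% of genes at or above the median signal). The elongation factor Tsfm differed by 0.32 (SE 0.13, adjusted p = 0.231 without and 0.0239 with the block) and the recycling factor Mrrf by 0.22 (SE 0.12). Of 21 mitochondrial ribosome assembly genes 0 passed (3 unadjusted), with a median of 0.17. With the block 3 rose (14.3%, close to the 15.1% of genes at or above the median signal). The rRNA methyltransferases Nsun4 and Mrm3 differed by 0.45 (SE 0.12) and 0.39 (SE 0.14), with adjusted p of 0.0205 and 0.0520 with the block. Of 5 mitochondrial ribosomal proteins under other names 0 passed (1 unadjusted, 1 with the block), and Chchd1 had a difference of 0.58 (adjusted p = 0.0822 without and 0.00255 with the block). Gadd45gip1 differed by 0.25 (SE 0.12).

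Of 15 genes that control TOP translation through mTORC1, 0 passed the test (3 at an unadjusted p under 0.05), with a median of 0.17. With the block 4 rose (26.7%, against 9.73% of all genes and 15.1% of genes at or above the median signal). Ddit4, an inhibitor of mTORC1, differed by 0.35 (SE 0.11) and the kinase Rps6kb2 by 0.36 (SE 0.12), with adjusted p of 0.0175 and 0.0285 with the block. Larp1, the TOP-binding repressor, differed by 0.16 (SE 0.16). Of 13 transcription regulators 0 passed (2 unadjusted), with a median of 0.04. With the block 2 of them rose (15.4%, near the 15.1% of genes at or above the median signal) and 1 fell (11.8% of all genes did). Fau, the cytosolic protein measured under another name, differed by 0.14. Myc, an activator of ribosomal genes, differed by 0.41 (SE 0.20, adjusted p = 0.333 without and 0.0208 with the block), and Ppargc1a, a coactivator of mitochondrial genes, by -0.65 (adjusted p = 0.0690 without and 0.00653 with the block). Pprc1, a related coactivator, differed by 0.39 (SE 0.12, adjusted p = 0.123 without and 0.0137 with the block).

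**Figure D5:**
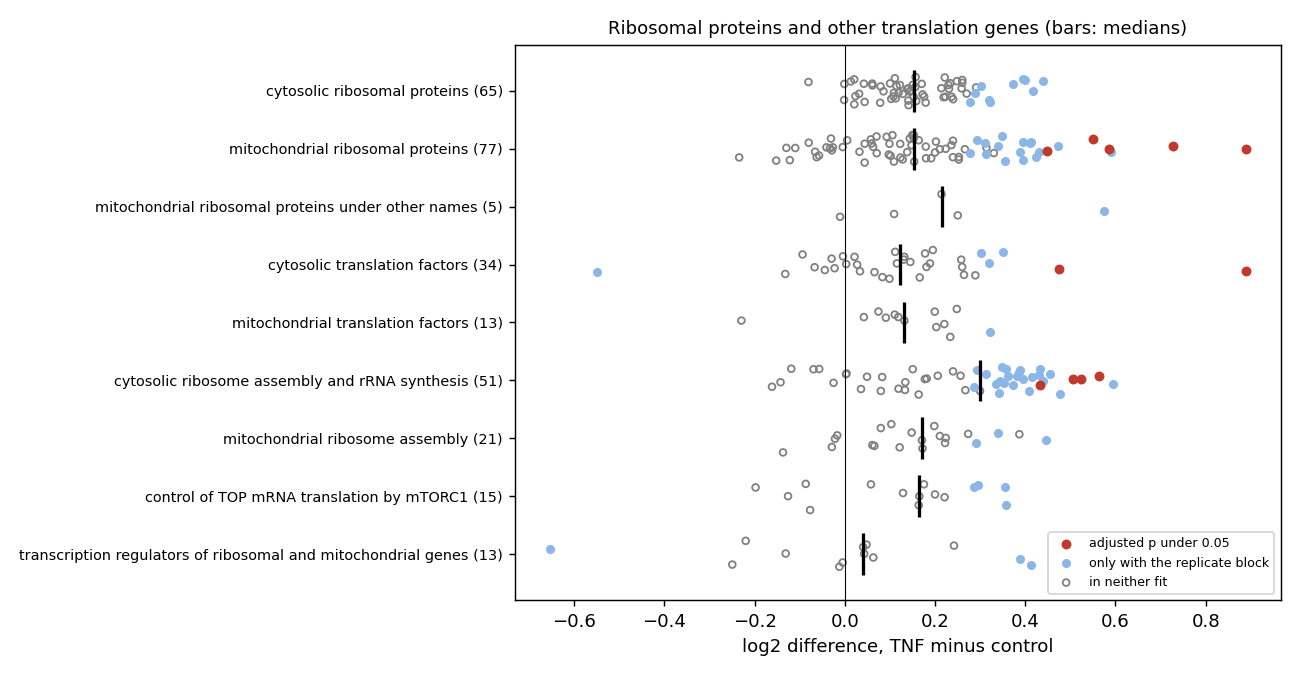
Log2 difference, TNF minus control (horizontal axis), of each gene in both ribosomal sets and in the translation lists (rows, number of genes in parentheses), with red points for genes called without the block, light blue points for genes called only with it, open points for the others and a black bar at the median. The cytosolic assembly list has the highest median, 0.30, and both ribosomal sets stand at 0.15.

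Set against each other, the cytosolic and mitochondrial ribosomal genes had nearly the same median difference. Their medians differed by -0.00055, cytosolic minus mitochondrial, and within numbers the cytosolic mean difference was the larger in replicates 1 and 3 and the mitochondrial one in replicate 2. The mitochondrial differences were spread more widely than the cytosolic ones. Their interquartile range was 0.26 wide, against 0.14 for cytosolic genes and 0.26 for all genes. A difference of at least 0.5 was found for 5 of 77 mitochondrial genes (6.49%) and 0 of 65 cytosolic genes. The share was 4.92% of all genes and 7.40% of genes at or above the median signal. No test was made over the genes of a set, since they share the same 6 arrays.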

How the data were processed

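The authors deposited log2 signals of 35544 probe sets for 6 arrays. The submitters' processing notes name RMA (background correction, quantile normalization, summary of probes) and limma, without versions. Values ran from 2.04 to 14.37, none was missing, and RMA leaves a floor under dim genes. Gene names came from the platform annotation, in which 21777 probe sets had 1 symbol and were used, 1621 several and 12146 none. The probe set of highest mean was kept for each of 19926 genes (999 had more than 1). Arrays carry no read depth, and their number limits the precision.

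Groups were compared with limma 3.58.1 (R 4.3.3; lmFit and eBayes, 4 residual degrees of freedom), TNF minus control, two-sided, with Benjamini-Hochberg adjustment over all genes and a threshold of 0.05. The replicate numbers pair the samples by the values: each array's deviations from its group mean correlated at 0.55, 0.65 and 0.75 within numbers, against -0.53 to -0.04 between numbers, a contrast that is partly forced. The blocked fit had 2 residual degrees of freedom, to which limma added 5.20 prior ones from all genes. Its SEs therefore rest more on that shared variance than on how regular a gene's own pairs are. Tables and plots used matplotlib 3.10.9, numpy 2.4.6 and pandas 2.3.3 under Python 3.11.15. The fit was also run on simulated data. These had independent noise and changes larger than that of any member, so they do not speak to the pairing or to small differences.

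The members and lists were chosen with earlier results of these data known. Named members were those called, in each set the 8 of smallest p, the 4 highest and 4 lowest differences, the 3 highest and 3 lowest signals, and a fixed set of paralogs and stalk proteins. Of the other lists, the called genes and the 2 of smallest p were named. Rps13, Rpl13, Larp1, Myc, Glul, Aqp4, Slc1a2 and other genes called only with the block were added after their values were seen. Alternatives were the block, other centring, quantile normalization, array weights, other variance models, a filter on dim genes, other probe sets, other member rules, other thresholds and arrays left out.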

Additional observations from a re-analysis of the deposited data

How the results depend on the processing

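With the replicate block, which uses the pairing by number, 1938 genes of the whole array were called higher and 2351 lower, against 771 and 663 without it, and 10 cytosolic and 21 mitochondrial genes were called higher. At an adjusted p under 0.01, 386 genes were higher and 195 lower, and 0 mitochondrial genes were called in limma without the block (14 at an unadjusted p under 0.05), against 7 at the same threshold with the block. With 1 array or both arrays of a number left out, the calls ranged from 273 to 669 higher and 106 to 455 lower over all genes, from 0 to 3 in the mitochondrial set, and stayed at 0 in the cytosolic set. There were 0 mitochondrial calls without replicate 1 or replicate 2 and 2 without replicate 3. The median difference ranged from 0.0907 (without control replicate 3) to 0.227 (without TNF replicate 3) in the cytosolic set and from 0.0696 (without control replicate 3) to 0.257 (without control replicate 1) in the mitochondrial set. Without TNF replicate 1 the cytosolic median was 0.0915, and without TNF replicate 3 the mitochondrial median was 0.256. The difference of the medians ranged from -0.0543 to 0.0778, so neither set was higher throughout. Centring, quantile normalization, the filter on dim genes, the variance model, array weights, other probe sets, other member rules and a size threshold of 0.5 gave 4 to 7 mitochondrial and 0 cytosolic calls. For 77 single genes under 17 settings, 1298 values were computed: 75 lost a call, 51 gained one and 0 called values changed sign. The probe sets at the gene's own position, all probe sets with 1 symbol and the set without paralogs were chosen after seeing the data. The low number of arrays limits what can be detected: the median SE of 0.135 to 0.144 was close to the median difference of 0.15.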

Other observations

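The chromosomes of the mitochondrial genes with calls were looked at after the values were seen, and their spread was not tested. The share of all genes called on each chromosome was not computed, so the counts below cannot be set against it. Of the 5 called genes 4 (Mrpl27, Mrpl38, Mrpl45 and Mrps7) lie on chromosome 11 by RefSeq annotation, which holds 11 of the 77 mitochondrial genes. All 11 had a positive difference, with a median of 0.15. On chromosome 17, which holds 8 mitochondrial genes, 5 rose with the block: Mrpl2, Mrpl14, Mrps18a, Mrps18b and Mrps34. In that fit 27.3% of the whole mitochondrial set and 9.73% of all genes rose. Their chromosome's median difference was 0.34, and 7 of the 8 were positive. The 8 cytosolic genes on chromosome 17 had a median of 0.13, all positive, and 0 were called with the block.

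Mrps34, a small-subunit protein required for stability of the mitochondrial ribosome in mice, measured 8.64, 8.81 and 8.25 in TNF samples, against 8.37, 8.32 and 7.73 in control samples. The groups overlapped, and the difference was 0.43 (SE 0.21, limma adjusted p = 0.349 without and 0.0123 with the block). Mrpl9 measured 9.40, 9.33 and 9.34 in TNF samples, against 9.04, 9.12 and 9.08 in control samples. Its groups were narrow and apart, and its difference of 0.28 (SE 0.10) had a limma adjusted p of 0.167 without and 0.0459 with the block.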
